A study of Macaca mulatta with 16 samples.

Results

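Hedgehog signaling in the fetal lung was followed through 7 genes of its core: the ligand SHH, the receptor PTCH1, the transducer SMO, the transcription factors GLI1, GLI2 and GLI3, and the decoy receptor HHIP. They were chosen by symbol, through the pairing of rhesus Ensembl identifiers with gene names, and each of the 7 had a row among the 22515 in the table (ENSMMUG00000062128 for SHH, ENSMMUG00000002634 for PTCH1, ENSMMUG00000012110 for SMO, ENSMMUG00000022058 for GLI1, ENSMMUG00000001868 for GLI2, ENSMMUG00000013614 for GLI3 and ENSMMUG00000007968 for HHIP). All 7 were among the 19192 genes that passed the filter on low counts, with between 281 and 3458 counts in any animal. The rule used no measured value, but the 7 genes were chosen with earlier results of these data known. The same holds for the lists of other genes below.

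The lungs came from 16 rhesus macaque fetuses, 1 library each, after selection of polyadenylated RNA. Preterm controls (n = 4, delivered at 131 to 135 days of gestation) and term controls (n = 2, 156 and 157 days) were untreated and had no sham injection. The other fetuses were exposed to 1 mg of lipopolysaccharide (LPS, the endotoxin of the bacterial outer membrane) injected into the amniotic fluid. They were delivered 16 hours later (n = 4, 130 or 131 days), or 5 days later without (n = 3, 131 to 134 days) or with (n = 3, 131 or 132 days) intramuscular betamethasone acetate given to the dam at 0.125 mg/kg (Beta-Ac, a slow-release form of a glucocorticoid used to mature the fetal lung). The effect of LPS therefore cannot be told apart from that of the injection, and no group received Beta-Ac alone in the values analysed here.

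In the developing lung, Sonic hedgehog is made by the epithelium and acts mainly on the neighboring mesenchyme. Without ligand, the receptor PTCH1 holds the membrane protein SMO inactive; binding of ligand relieves SMO, which then drives GLI transcription factors into the nucleus. GLI2 is mostly an activator and GLI3 mostly a repressor, while GLI1, PTCH1 and HHIP are themselves transcribed in response to the signal, so that PTCH1 and HHIP feed back on it. The pathway is known for its part in branching, growth of the mesenchyme and formation of airway smooth muscle.

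Values are CPM (counts relative to the size of the library, here scaled with trimmed-mean factors), and changes are log2 fold changes from limma over all 16 animals, with Benjamini-Hochberg adjustment over the 19192 genes and a limit of 0.05. The 4 libraries of the 16-hour group held 30596371 to 48052891 counts and the other 12 held 20169363 to 28348816, so that depth and exposure at 16 hours cannot be told apart. With the 16-hour libraries thinned to the depth of the others, an alternative chosen after seeing the data, the same 5 of the 7 genes passed against preterm controls. Levels of different genes are not ranked, since lengths were not used. Each gene, difference between genes or sum of markers is set only against itself in other animals. In a sum of markers, genes with the most counts weigh most.

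At 16 hours after LPS, transcripts of the ligand, the receptor, the transducer and the activators of the Hedgehog pathway were all lower than in preterm controls. SHH fell most, to 21.5 ± 6.88 CPM from 63.3 ± 7.32 CPM (SD, n = 4 each), and PTCH1, SMO, GLI1 and GLI2 fell by between 1.62-fold and 2.00-fold. GLI3 and HHIP did not pass the test. In all, 5 of 7 genes passed, each lower, where 38.4% of all tested genes passed in this comparison (19.6% lower and 18.7% higher). The 5 genes were also those with no overlap between the 16-hour animals and preterm controls, against 16.6% of all genes that were lower without overlap and 33.6% without overlap in either direction. The median change of the 7 genes was -0.81 on the log2 scale, beside -0.09 over all genes tested. With the day of delivery as a covariate, in a fit that left out the term controls, 3 of the 7 passed (SHH, SMO and GLI2). Scaling to library totals alone lowered all genes by 0.20 in the median on the log2 scale and took the share of higher genes among those that passed from 48.8% to 29.1%, and the same 5 of the 7 genes passed.

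**Figure D1:**
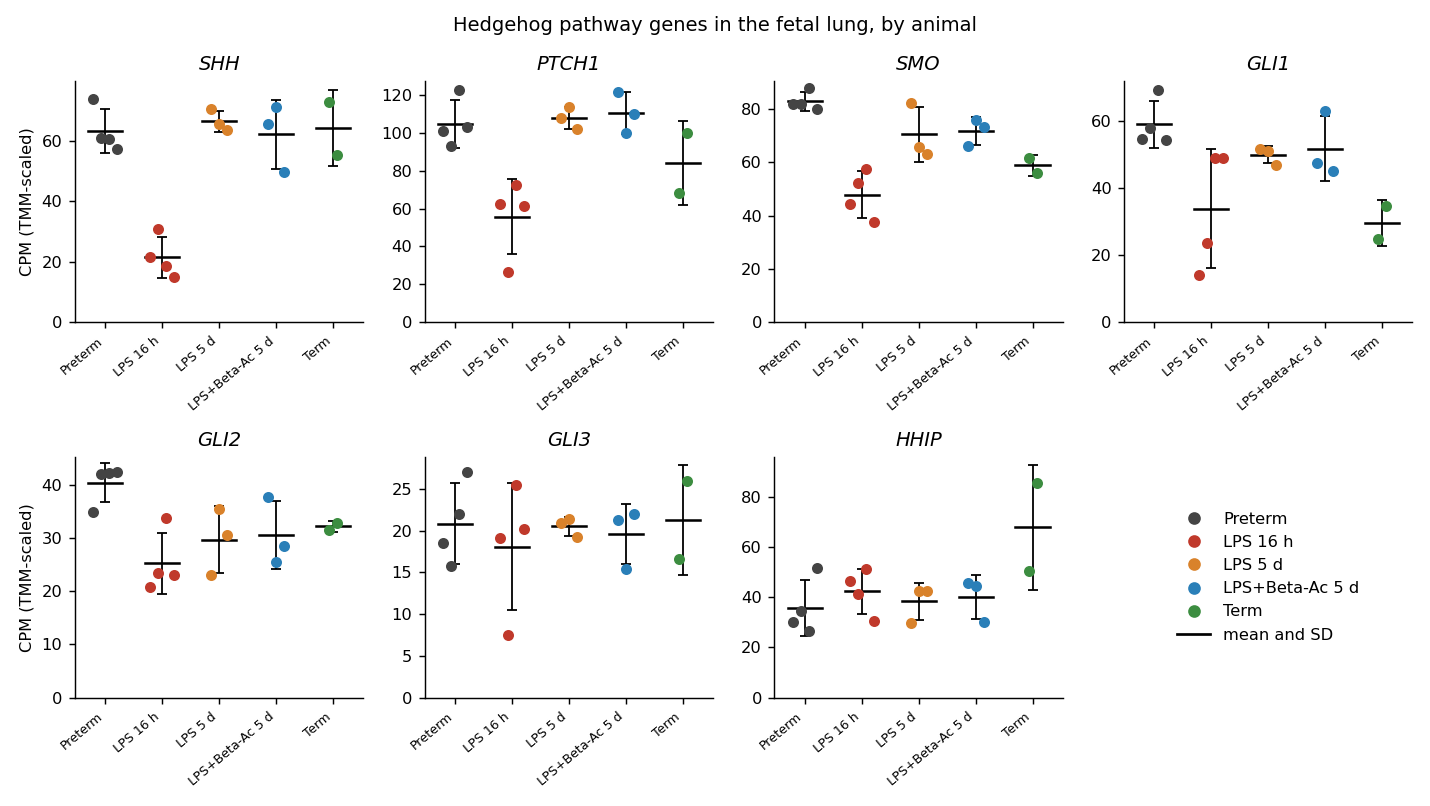
Level of each Hedgehog pathway gene in every animal (vertical axis: CPM from 0, scaled with trimmed-mean factors; horizontal axis: group), with points for animals and black marks for the mean and SD. The 16-hour animals lie below all preterm controls for SHH, PTCH1, SMO, GLI1 and GLI2, and HHIP is highest in a term control at 85.3 CPM.

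SHH, the ligand, was at 74.0, 61.1, 60.8 and 57.3 CPM in the preterm controls. It was at 21.7, 30.9, 18.4 and 14.8 CPM in the 16-hour animals. The highest 16-hour animal thus stood well under the lowest control. The log2 change was -1.60 (SE 0.19, 95% interval -2.00 to -1.20, adjusted p = 8.80e-06 by limma), or 3.04-fold lower. SHH alone of the 7 genes passed with a change of at least 2-fold, the fold limit that the paper used. At that limit 1 of 7 was no larger a share than the 14.4% of all genes.

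In the other groups SHH lay within the range of the controls or close to it. It was at 70.5, 65.7 and 63.6 CPM 5 days after LPS, at 65.6, 71.5 and 49.6 CPM after LPS + Beta-Ac, and at 73.2 and 55.3 CPM at term. The order of the means ran from 66.6 CPM (LPS, 5 days) through 64.2 CPM (term), 63.3 CPM (preterm) and 62.3 CPM (LPS + Beta-Ac) to 21.5 CPM (LPS, 16 hours). Each neighboring pair in that order overlapped except the last.

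PTCH1, the receptor that binds SHH and is itself a target of the pathway, was at 101, 92.9, 123 and 103 CPM in preterm controls. In the 16-hour animals it was at 62.3, 26.7, 72.2 and 61.5 CPM. All 4 were lower than every control, and animal 029, at 26.7 CPM, lay far below the other 3. The log2 change was -1.0 (SE 0.24, 95% interval -1.51 to -0.49, adjusted p = 0.00412 by limma), just short of 2-fold. Without animal 029 it was -0.65 (adjusted p = 0.0017 by limma), and with the day of delivery as a covariate it was -0.72 and no longer passed (adjusted p = 0.112 by limma).

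PTCH1 stood at 102 to 114 CPM 5 days after LPS and at 99.7 to 122 CPM after LPS + Beta-Ac. At term it was at 68.5 and 99.9 CPM. The mean was highest after LPS + Beta-Ac (111 CPM) and lowest at 16 hours (55.7 CPM), and every pair of neighbors in the order of the 5 groups overlapped, the last because the lower term control lay inside the 16-hour range.

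SMO, the membrane protein that carries the signal into the cell, was the most even of the 7 genes among preterm controls, at 82.0, 81.9, 88.1 and 80.1 CPM. In the 16-hour animals it was at 44.5, 52.4, 57.4 and 37.5 CPM. The groups did not overlap, and SMO changed by a log2 value of -0.81 (SE 0.13, 95% interval -1.08 to -0.54, adjusted p = 0.000139 by limma), or 1.75-fold lower.

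In contrast to SHH and PTCH1, the mean of SMO was below that of preterm controls in each of the other groups. It was at 82.5, 66.0 and 63.2 CPM 5 days after LPS, at 66.2, 76.0 and 73.4 CPM after LPS + Beta-Ac, and at 61.7 and 56.1 CPM at term. These differences from preterm controls did not pass, with log2 values of -0.24 (95% interval -0.53 to 0.05), -0.21 (-0.50 to 0.08) and -0.49 (-0.82 to -0.16, adjusted p = 0.0898 by limma). Both term animals and all 3 LPS + Beta-Ac animals were under the lowest preterm control, while the animals 5 days after LPS overlapped the controls.

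GLI1, the transcription factor whose own level is the usual readout of Hedgehog activity, was at 54.5, 57.8, 69.1 and 54.2 CPM in preterm controls. In the 16-hour animals it was at 14, 23.4, 48.8 and 48.9 CPM. The 4 animals fell into a low pair, 026 and 029, and a pair just under the controls. GLI1 changed by a log2 value of -0.98 (SE 0.31, 95% interval -1.64 to -0.31, adjusted p = 0.0229 by limma). It did not pass without animal 029 (-0.83, adjusted p = 0.072 by limma), without preterm control 113 (-0.90, adjusted p = 0.0592), with only the groups compared in the fit (adjusted p = 0.0886) or with the day of delivery as a covariate (-0.79, adjusted p = 0.212), and without animal 026 it was -0.61 (adjusted p = 0.0477).

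At term GLI1 was at 24.6 and 34.5 CPM, under all 4 preterm controls and within the 16-hour range. The log2 difference from preterm controls was -1.01 (SE 0.38, 95% interval -1.82 to -0.19) but did not pass with 2 term animals (adjusted p = 0.16 by limma). GLI1 was at 51.6, 51.0 and 46.9 CPM 5 days after LPS and at 47.4, 62.8 and 44.9 CPM after LPS + Beta-Ac. The difference from term controls was 0.77 (95% interval -0.09 to 1.63) for LPS and 0.81 (-0.05 to 1.67) for LPS + Beta-Ac, and neither passed (adjusted p = 0.503 and 0.374 by limma).

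GLI2, the main activator, was at 34.9, 42.0, 42.2 and 42.5 CPM in preterm controls, of which animal 092 stood apart as the lowest. It was at 20.8, 23.3, 33.8 and 23.1 CPM in the 16-hour animals, all lower than every control, with a log2 change of -0.70 (SE 0.17, 95% interval -1.06 to -0.33, adjusted p = 0.00467 by limma), or 1.62-fold lower. Its mean was below that of preterm controls in each of the other groups as well, at 29.7 ± 6.33 CPM 5 days after LPS (n = 3), 30.5 ± 6.36 CPM after LPS + Beta-Ac (n = 3) and 32.2 ± 1.04 CPM at term (n = 2), without passing: the log2 values were -0.46 (95% interval -0.86 to -0.07, adjusted p = 0.111 by limma), -0.42 (-0.81 to -0.02, adjusted p = 0.14) and -0.32 (-0.77 to 0.12, adjusted p = 0.441).

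GLI3, which acts mostly as a repressor, was at 18.6, 15.7, 22.0 and 27.0 CPM in preterm controls. It was at 19.2, 7.50, 25.5 and 20.2 CPM in the 16-hour animals. Only animal 029 lay outside the range of the controls. The log2 change was -0.30 (95% interval -0.95 to 0.34, adjusted p = 0.46 by limma), and its interval reaches from nearly 2-fold lower to higher. In the other groups GLI3 stayed between 15.4 and 25.9 CPM, all 5 group means lay between 18.1 and 21.3 CPM, and every neighboring pair of groups overlapped.

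HHIP, which binds Hedgehog ligand at the cell surface and keeps it from PTCH1, was at 30.0, 34.5, 26.5 and 51.6 CPM in preterm controls. It was at 46.6, 41.4, 51.3 and 30.4 CPM in the 16-hour animals. Of the 7 genes it alone had a higher mean at 16 hours than in preterm controls, with a log2 value of 0.27 that did not pass (95% interval -0.23 to 0.78, adjusted p = 0.395 by limma). At term HHIP was at 50.3 and 85.3 CPM, a log2 difference of 0.92 from preterm controls (95% interval 0.30 to 1.54, adjusted p = 0.0921 by limma). This difference passed when preterm control 209 was left out (1.12, adjusted p = 0.026), and with term control 200 also left out (1.5, adjusted p = 0.0316 by limma), and it stood at 0.54 without term control 201 (adjusted p = 0.508).

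**Figure D2:**
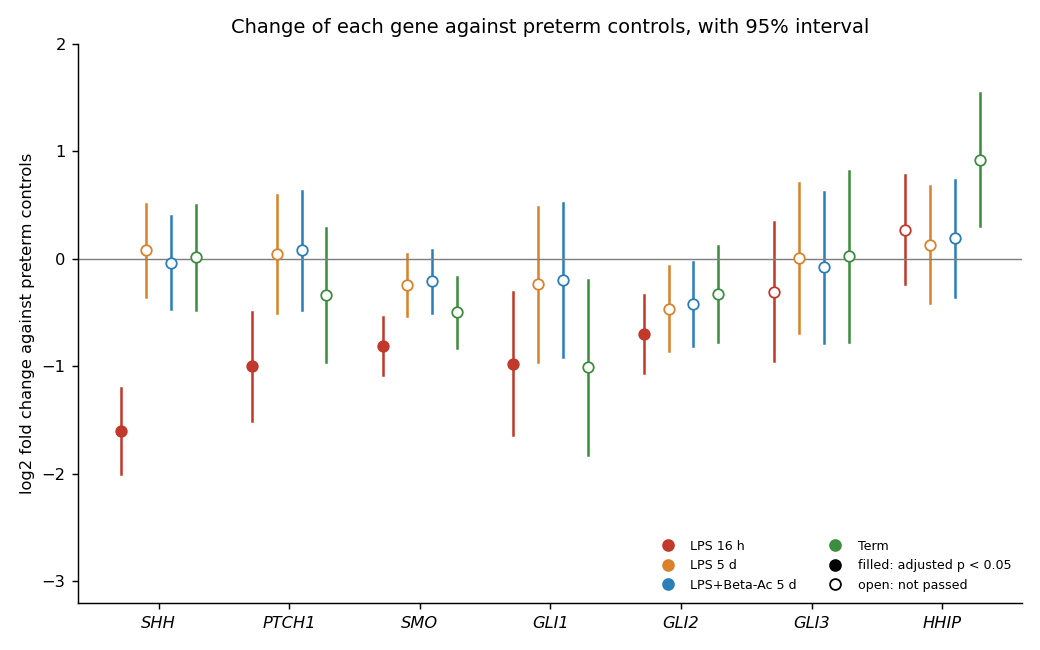
Log2 fold change of each gene against preterm controls (vertical axis) for 4 groups, with bars for the 95% interval and filled points for adjusted p under 0.05 by limma. Filled points occur at 16 hours alone, for SHH (-1.60), PTCH1, SMO, GLI1 and GLI2; the term values of GLI1 (-1.01) and HHIP (0.92) are open.

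At 5 days after LPS, none of the 7 genes passed against preterm controls, where 14.7% of all genes passed (9.24% lower and 5.49% higher). With limma-voom the count was also 0. By limma 1 gene, GLI2, was under an unadjusted p of 0.05, as were 5378 of all 19192 genes. After LPS + Beta-Ac the count was again 0 with limma and limma-voom, where 17.3% of all genes passed (10.2% lower and 7.11% higher). GLI2 was again under the unadjusted limit by limma, as were 5769 of all 19192 genes. The 95% intervals at 5 days kept SHH between -0.35 and 0.51 after LPS and between -0.47 and 0.40 after LPS + Beta-Ac, and PTCH1 between -0.50 and 0.60 and between -0.47 and 0.63. These 2 comparisons share their 4 control animals.

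Adding Beta-Ac to LPS left the log2 differences of the 7 genes between -0.11 and 0.06 at 5 days. None passed, with limma or limma-voom, in a comparison in which 20 of 19192 genes passed (0.104%). None of the 7 was under an unadjusted p of 0.05 by limma, where 926 of the 19192 genes were. For SHH the interval ran from -0.57 to 0.35 and for GLI1 from -0.73 to 0.81 with 3 animals in each group.

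Between the 2 ages of untreated lung, none of the 7 genes passed with limma or limma-voom, where 3.99% of all genes passed (2.57% lower and 1.42% higher, with a share of higher genes of 35.6% that became 51.1% with library totals alone). GLI1, SMO and HHIP were under an unadjusted p of 0.05, as were 3625 of all 19192 genes. Leaving out preterm control 209 made the count 1, HHIP. Against term controls, none of the 7 passed 5 days after LPS (0.099% of all genes did) or after LPS + Beta-Ac (0.735%), again with both limma and limma-voom. The share of higher genes among those that passed was 52.6% and 65.2%, and 37.5% and 48.5% with library totals alone. In both, HHIP was the 1 member under an unadjusted p of 0.05 by limma, as were 2107 (LPS) and 2774 (LPS + Beta-Ac) of all 19192 genes. All 6 animals of both 5-day groups had less HHIP (29.9 to 45.7 CPM) than either term control, without passing (adjusted p = 0.352 and 0.291 by limma). Of the 7 genes, 4 (LPS) and 3 (LPS + Beta-Ac) had no overlap with the 2 term controls. The share of all genes without overlap was not taken there, so these counts are not read as a difference from term.

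The difference between 16 hours and 5 days after LPS was tested directly, and 3 of the 7 genes passed, each lower at 16 hours. The log2 difference was -1.68 for SHH (SE 0.20, adjusted p = 1.47e-05 by limma), -1.05 for PTCH1 (SE 0.26, adjusted p = 0.00544) and -0.57 for SMO (SE 0.14, adjusted p = 0.00458). In this comparison 35.1% of all genes passed, 15.6% lower and 19.4% higher, and 14.7% passed with at least 2-fold, SHH and PTCH1 among them. With library totals alone the share of higher genes among those that passed went from 55.4% to 35.4%, and GLI1 passed besides these 3 genes. GLI1 (-0.74, 95% interval -1.46 to -0.02, adjusted p = 0.103 by limma), GLI2 (-0.24, adjusted p = 0.352), GLI3 (-0.31, adjusted p = 0.497) and HHIP (0.14, adjusted p = 0.715) did not. This comparison uses the same 16-hour animals as the one with preterm controls, and different animals were sampled at each time.

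Within the 16-hour group the genes did not rank the animals alike. Animal 029 had the most SHH and the least PTCH1 and GLI3, animal 026 had the least GLI1 and GLI2, and animal 038 had the least SHH, SMO and HHIP. The log2 difference of PTCH1 over SHH was -0.21 in animal 029 and 1.52 to 2.05 in the other 3, beside 0.45 to 1.01 in preterm controls. Over all 16 animals, after removal of group means, PTCH1 and GLI3 went together (Pearson r = 0.93, and 0.77 without animal 029). SHH went apart from GLI3 (-0.79, and -0.53 without animal 029) and from PTCH1 (-0.72, and -0.32 without it). With group means kept, SHH and PTCH1 had a Pearson r of 0.60. These are descriptions over libraries that share their scaling, with no test. Animal 029 also had the smallest scaling factor of the 16 libraries, 0.857.

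The genes most like each member over the 16 animals were ranked by Pearson r of log2 CPM, a measure that takes in the step between the 16-hour group and the rest. Nearest to SHH were CLIC3 (0.978), XNDC1 and SLC25A45, to PTCH1 ZNF827 (0.949), SPTBN1 and ZNF462, and to SMO INPPL1 (0.930), TMEM119 and FGD1. Nearest to GLI1 were NOS1 (0.844), ARHGEF40 and CDH24, to GLI2 GPC4 (0.83), NMUR1 and TNFRSF19, to GLI3 CREBBP (0.904), ZSCAN12 and PRDM11, and to HHIP CFAP96 (0.839), CTSV and ZNF81. With group means removed, none of these genes remained among the nearest 3 of its member, and the nearest were ACOT8 (0.962) for SHH, GOLGA3 (0.963) for PTCH1, TRIOBP (0.958) for SMO, PAX3 (0.920) for GLI1, FHOD3 (0.815) for GLI2, XPO5 (0.964) for GLI3 and GPR158 (0.852) for HHIP.

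The wider pathway was taken from a list of 35 other genes, of which 31 were tested. The list was written with earlier results of these data known. At 16 hours 16 of the 31 passed against preterm controls, 5 higher and 11 lower, where 38.4% of all genes passed (18.7% higher and 19.6% lower). Their median log2 change was -0.35, beside -0.09 over all genes. The changes were not in 1 direction: genes that make, release or receive ligand were found at both extremes.

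**Figure D3:**
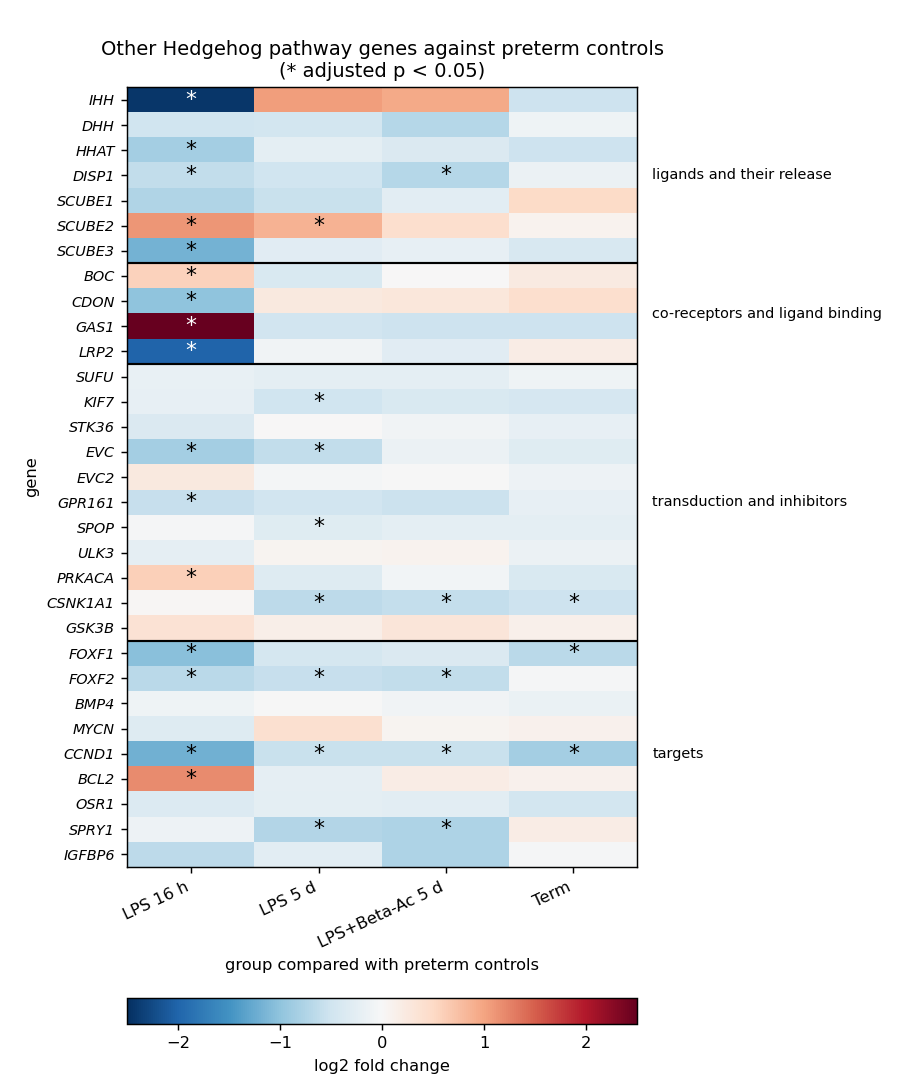
Log2 fold change against preterm controls (color, from -2.5 to 2.5) of 31 other Hedgehog pathway genes (rows, by role) in 4 groups (columns), with a star at adjusted p under 0.05 by limma. The 16-hour column holds the 2 darkest cells, GAS1 (2.48) and IHH (-2.44), and 16 stars, against 8, 5 and 3 in the other columns.

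Among 7 genes for ligands and their release, 4 fell and 1 rose at 16 hours, where 19.6% and 18.7% of all genes did. Indian hedgehog (IHH), the second ligand of the family, was at 3.14, 2.03, 2.84 and 2.33 CPM in preterm controls. It was at 0.64, 0.48, 1.03 and 0.06 CPM in the 16-hour animals, from 2 to 44 counts. No 16-hour animal reached the lowest control, and the log2 change was -2.44 (SE 0.49, adjusted p = 0.00123 by limma). HHAT, which attaches palmitate to the ligand (-0.85), DISP1, which releases it from the cell (-0.61), and SCUBE3, a secreted protein of the family that aids release (-1.18), fell as well, although the call for SCUBE3 was lost with the day of delivery as a covariate (adjusted p = 0.0998 by limma). SCUBE2, of the same family, rose by 1.11 (adjusted p = 0.00136) to 104 ± 22.1 CPM from 48.8 ± 12.2 CPM (SD, n = 4 each). DHH, the third ligand, did not pass (-0.50, adjusted p = 0.101 by limma).

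All 4 tested genes for co-receptors and ligand-binding proteins passed at 16 hours, 2 in each direction, where 38.4% of all genes passed. GAS1, a membrane-anchored protein that binds Hedgehog ligand and aids its reception by PTCH1, was at 42.9, 32.0, 45.9 and 42.4 CPM in preterm controls. It was at 148, 266, 203 and 329 CPM in the 16-hour animals. The lowest of these stood far above the highest control, and the log2 change was 2.48 (SE 0.22, adjusted p = 4.65e-07 by limma). CDON fell (-1.01, adjusted p = 0.00846) and the related co-receptor BOC rose (0.58, adjusted p = 0.0114), both with groups that overlapped, and LRP2, a large endocytic receptor, fell (-1.99) from a low level, 23 to 31 counts in controls and 5 to 17 counts at 16 hours. The call for BOC was lost with scaling to library totals alone (adjusted p = 0.0705), and that for CDON with the day of delivery as a covariate (adjusted p = 0.229).

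**Figure D4:**
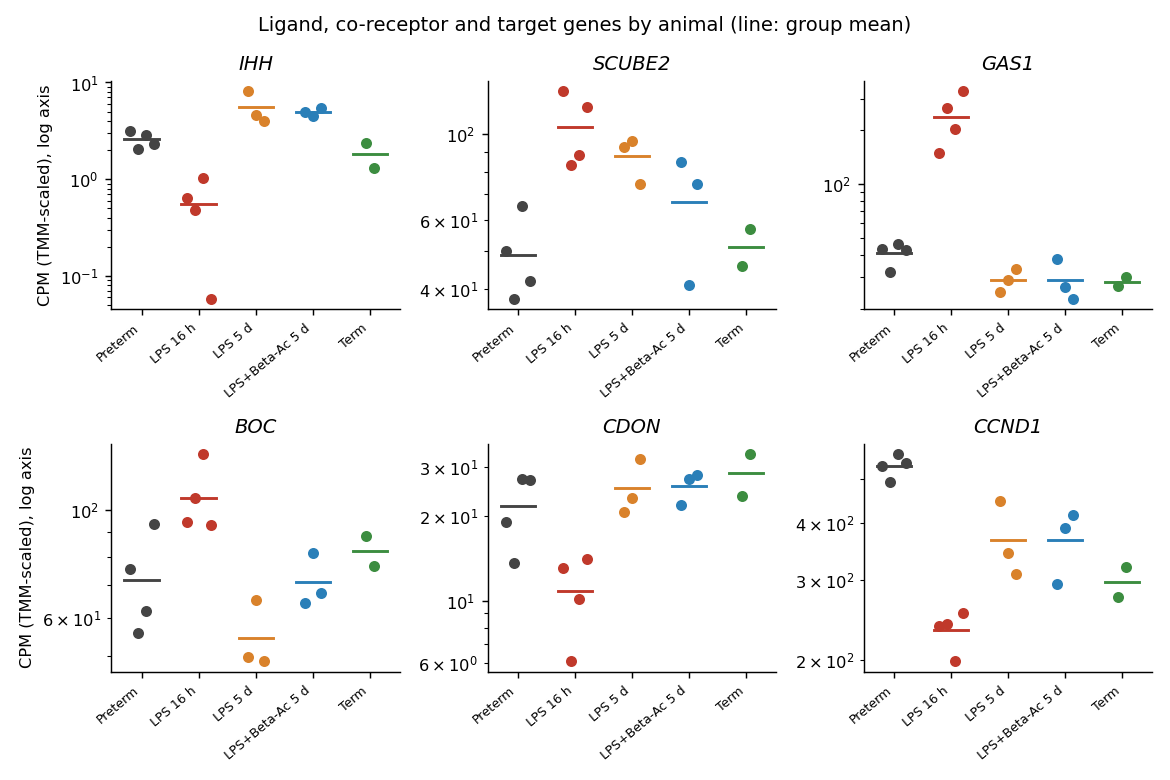
Level of 6 pathway genes in every animal (vertical axis: CPM, log scale; horizontal axis: group; line: group mean). GAS1 in the 16-hour animals (148 to 329 CPM) lies above every other animal and IHH (0.06 to 1.03 CPM) below every other animal, while CCND1 is lower than in preterm controls in all 4 other groups.

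GAS1 and IHH were back at or past the control level 5 days after LPS. GAS1 was at 24.9, 28.8 and 33.5 CPM, and IHH at 8.09, 4.60 and 3.99 CPM, each of these above the highest preterm control, although the difference of IHH from preterm controls did not pass (log2 value 1.04, adjusted p = 0.223 by limma). Tested between 16 hours and 5 days, GAS1 was higher (log2 difference 2.97, adjusted p = 2.87e-07) and IHH lower (-3.47, adjusted p = 0.000146) at 16 hours, both by limma. In that comparison 15 of the 31 genes passed, 8 higher and 7 lower, where 35.1% of all genes passed (19.4% higher and 15.6% lower).

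Among 11 genes for transduction inside the cell and its inhibitors, 3 passed at 16 hours, a lower share than the 38.4% of all genes that passed. PRKACA, a catalytic subunit of protein kinase A, which marks GLI proteins for processing, rose by 0.59 (adjusted p = 0.000907 by limma), EVC, a ciliary partner of SMO, fell (-0.84, adjusted p = 0.00117), and GPR161, a ciliary receptor that restrains the pathway, fell (-0.57, adjusted p = 0.0453), a call that was lost under 10 of 17 alternatives. SUFU, the main cytoplasmic inhibitor of GLI proteins, did not pass (-0.19, 95% interval -0.41 to 0.03).

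Of the 9 target genes tested, 3 fell and 1 rose at 16 hours, a share near the 38.4% of all genes that passed. FOXF1 (-1.05, adjusted p = 1.91e-05 by limma) and FOXF2 (-0.67, adjusted p = 0.00137), transcription factors of the lung mesenchyme, and CCND1, a cyclin of the G1 phase (-1.20, adjusted p = 4.48e-06), fell, and BCL2, an inhibitor of apoptosis, rose (1.17, adjusted p = 0.00237). BMP4 did not pass (-0.11, 95% interval -0.50 to 0.28). CCND1 is also under many other controls, and FOXF1 was at 87.6, 79.6, 58.4 and 76.9 CPM in preterm controls and at 34.1, 39.7, 37.3 and 33.2 CPM at 16 hours, with no overlap.

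In the other groups fewer genes of the wider list passed against preterm controls. After LPS 8 of 31 passed, where 14.7% of all genes did, SCUBE2 higher (0.87) and KIF7, EVC, SPOP, CSNK1A1, FOXF2, CCND1 and SPRY1 lower, with a median over the 31 of -0.28 beside 0.00 over all genes. After LPS + Beta-Ac 5 of 31 passed, no larger a share than the 17.3% of all genes. All 5 were lower: DISP1, CSNK1A1, FOXF2, CCND1 and SPRY1, with a median of -0.25 beside -0.01. At term 3 of 31 passed, where 3.99% of all genes did, all lower: CSNK1A1, FOXF1 and CCND1. CSNK1A1, a casein kinase that acts on SMO and GLI proteins and on beta-catenin, was at 269, 240, 257 and 195 CPM in preterm controls and at 146 to 177 CPM in the 8 animals of these 3 groups. Its log2 change was -0.65 after LPS, -0.60 after LPS + Beta-Ac and -0.52 at term (adjusted p = 0.00116, 0.00143 and 0.0286 by limma). SPRY1, an inhibitor of receptor tyrosine kinase signaling, fell by 0.73 and 0.78 on the log2 scale in the 5-day groups.

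Many of these calls were lost when 1 animal was left out or the processing changed. After LPS, SCUBE2 and EVC were lost without preterm control 092, 101 or 209 or animal 239 or 240, KIF7 without 092, 101, 113, 240 or 242, and SPOP without 092, 101, 113, 239, 240 or 242, with adjusted p by limma up to 0.106, 0.14, 0.139 and 0.165. FOXF2 was lost without 092, 239 or 242, CCND1 without 240 or 242 and SPRY1 without 239 or 240, with adjusted p up to 0.0662, 0.082 and 0.0871. SPOP was also lost with median-of-ratios scaling, no filter, limma-voom and only the groups compared (adjusted p = 0.0507 to 0.0718 by limma), and KIF7 with the day of delivery as a covariate (0.0518). After LPS + Beta-Ac, DISP1 (adjusted p = 0.0711 by limma) and CCND1 (0.0916) were lost without animal 248, and FOXF2 without 255 (0.061). CCND1 (adjusted p = 0.136 by limma) and FOXF2 (0.0569) were also lost there with the day of delivery as a covariate. At term CSNK1A1 was lost without 092, 101, 113 or either term control, FOXF1 without 092, 101 or either term control, and CCND1 without term control 200 (adjusted p up to 0.229, 0.184 and 0.124 by limma). CSNK1A1 and FOXF1 were lost at term with library totals alone (adjusted p = 0.0637 and 0.0763 by limma) and with only the groups compared (0.152 and 0.132) as well. The calls for CSNK1A1 in both 5-day groups and for SPRY1 after LPS + Beta-Ac passed under all 15 alternatives run for each.

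The lung epithelial markers SFTPC (at least 1797 CPM) and NKX2-1 (at least 47.2 CPM) were found in every animal. Markers of several cell types differed between the 16-hour animals and preterm controls, and some also differed at 5 days and at term. In bulk tissue, fewer cells of a type cannot be told apart from less RNA per cell. Myeloid markers summed to 157 to 285 CPM in preterm controls and to 2338 to 3056 CPM at 16 hours, and 7 of 9 rose, where 18.7% of all genes did, among them S100A8, S100A9, CD14 and ITGAM. Of 12 mesenchymal markers 8 fell, where 19.6% of all genes did, and none rose (sum 12575 to 20883 CPM in controls, 8803 to 12244 CPM at 16 hours). Most of that sum was COL1A1, COL1A2 and COL3A1. Their means were 4386, 3685 and 5849 CPM in controls and 3661, 2006 and 3234 CPM at 16 hours. By log2 change, 10 of the 12 markers were lower and 2 higher. Of 8 smooth muscle and myofibroblast markers 5 fell and 2 rose, where 19.6% and 18.7% of all genes did. The 2 that rose were DES (mean 34.5 CPM in controls and 125 CPM at 16 hours) and TAGLN (439 and 635 CPM). The list summed to 1902 to 2475 CPM in controls and to 1510 to 1977 CPM at 16 hours. The part of these shifts in the lower levels of PTCH1, SMO, GLI1 and GLI2 was not tested.

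**Figure D5:**
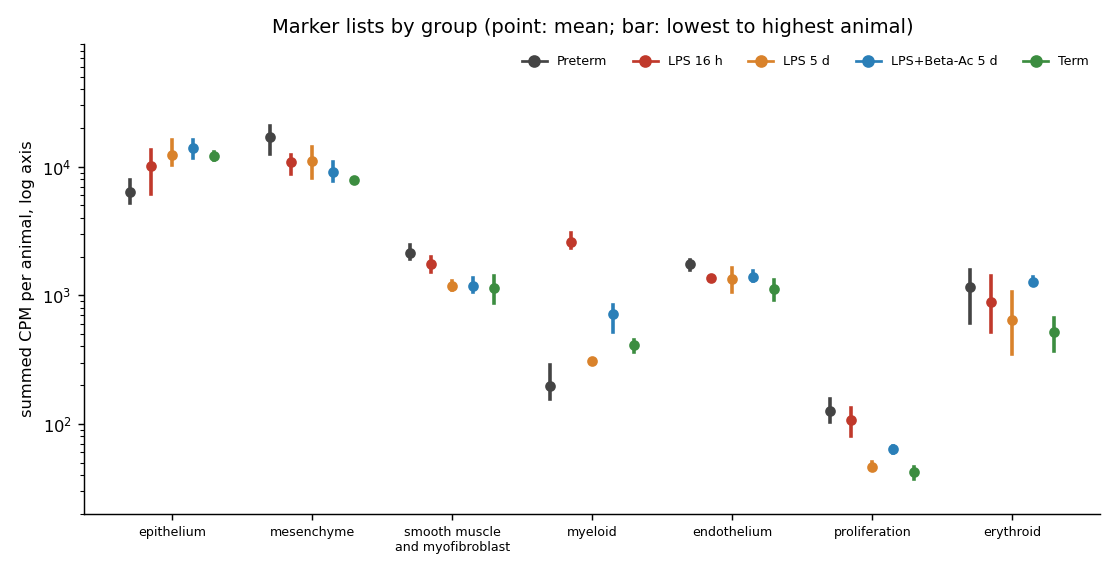
Summed CPM of each marker list (vertical axis, log scale) by group, with points for the mean over animals and bars from the lowest to the highest animal. Myeloid markers stand apart at 16 hours (2338 to 3056 CPM). The sum of mesenchymal markers, most of it COL1A1, COL1A2 and COL3A1, has its highest mean in preterm controls. The sum of epithelial markers, most of it SFTPC and SFTPB, is 6137 to 13385 CPM at 16 hours.

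Markers of the epithelium, the source of SHH, went both ways. Of 9 epithelial markers 3 rose at 16 hours (ABCA3, SFTPB and KRT18), 2 fell (NKX2-1 at -0.54 and CLDN18 at -1.26) and 4 did not pass. Of all genes 18.7% rose and 19.6% fell. The epithelial markers summed to 6137 to 13385 CPM against 5174 to 7824 CPM in preterm controls. Most of that sum was the surfactant genes SFTPC (4640 CPM at 16 hours and 2942 CPM in preterm controls, means) and SFTPB (4233 and 2791 CPM). NKX2-1, the defining transcription factor of the lung epithelium, was at 66.5 CPM at 16 hours and at 96.6 CPM in preterm controls (means, n = 4 each). The means of CLDN18 (23.6 and 57.5 CPM), EPCAM (129 and 159 CPM, adjusted p = 0.144 by limma) and CDH1 (55.7 and 63.5 CPM, adjusted p = 0.531) were also lower at 16 hours, the last 2 without passing. Those of ABCA3 (757 and 191 CPM), KRT18 (185 and 93.3 CPM) and SOX9 (11.5 and 8.25 CPM) were higher, SOX9 without passing. By log2 change, 5 of the 9 markers were higher and 4 lower, with a median of 0.56. The part of the epithelial shifts in the lower level of SHH was not tested. At the same time 1 of 5 endothelial markers (KDR), 1 of 6 proliferation markers (CDK1, -0.51) and none of 5 erythroid markers passed by limma, where 38.4% of all genes did. No erythroid marker was under an unadjusted p of 0.05 either, where 8983 of all 19192 genes were. At 5 days myeloid markers summed to 299 to 322 CPM after LPS and to 518 to 846 CPM after LPS + Beta-Ac. All 6 proliferation markers passed lower after LPS, 4 of 6 after LPS + Beta-Ac and 5 of 6 at term. Of all genes 9.24%, 10.2% and 2.57% did so. Mesenchymal markers summed to 8123 to 14208 CPM after LPS and to 7777 to 10820 CPM after LPS + Beta-Ac. Of 8 smooth muscle and myofibroblast markers 5 passed lower after LPS, 6 after LPS + Beta-Ac and 4 at term. The shares of all genes were again 9.24%, 10.2% and 2.57%. The smooth muscle markers summed to 1101 to 1290 CPM after LPS, 1052 to 1367 CPM after LPS + Beta-Ac and 870 to 1400 CPM at term.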

How the data were processed

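RNA from 16 frozen fetal lungs was sequenced by the authors after poly(A) selection, assigned with kallisto to the rhesus build Mmul_10 and compared by them with DESeq2. The sources used here do not give versions, the annotation release or whether counting used strand. The authors deposited whole-number counts per Ensembl gene, neither normalized nor filtered. Because the check of units could not read the layout of the table, its unit was recorded as other and limma took the place of the count model that had been planned.

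Symbols were paired with 17256 of 22515 rows. Genes with 10 counts in the median library (0.371 CPM) in 2 animals and 15 counts in all were tested, which left 19192. Counts were scaled with trimmed-mean factors (TMM, trimming 30% of log ratios and 5% of mean values) and taken to a log2 CPM scale (prior count 2). A model of 5 group means over the 16 animals was fitted with limma 3.58.1 in R 4.3.3 (trend and robust), with 8 comparisons. The script was tested on simulated data. Samples were grouped by treatment and interval from the labels, and each animal is a separate fetus. No 2 libraries of a group agreed within sampling noise (chi-square per degree of freedom 31.1 to 166 over 19 pairs). No sequencing batch is given in the labels.

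The 7 members are always named. Of the wider list, genes past adjusted p of 0.05 in a comparison with preterm controls are named, and DHH, SUFU and BMP4 were named after their values were seen. Of the listed genes, 3 of the pathway and 1 marker were not analysed here, and NKX6-1 did not pass the filter. The members and all lists were chosen with earlier results of these data known. Alternatives were other scalings, filter, prior count, limma-voom, fits of only the groups compared and the day of delivery as a covariate. The fit with the day of delivery left out the term controls. Each animal was also left out in turn.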

Additional observations from a re-analysis of the deposited data

Results flagged for a closer look

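PTCH1 in 16-hour animal 029 stood at a log2 CPM of 4.74, far below the other 3 animals of its group, and GLI2 in preterm control 092 stood at 5.13, below the other 3 controls. The gap to the nearest animal was 0.838 and 0.937 of the range of the group. In all 14 sets of 4 animals were looked at (7 genes in 2 groups), and chance marks about 1 in 20. Without animal 029 the log2 change of PTCH1 at 16 hours was -0.65 and still passed.

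The change against preterm controls differed between 16 hours and 5 days after LPS for 3 genes: the difference between the changes was -1.68 for SHH, -1.05 for PTCH1 and -0.57 for SMO on the log2 scale, each past the limit by limma (adjusted p = 1.47e-05, 0.00544 and 0.00458). SHH was lower in 4 of 4 animals at 16 hours than in any animal at 5 days.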

How the results depend on the processing

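No paired analysis was possible because no fetus was sampled in more than 1 group. For the number of Hedgehog genes that passed, 3 of the 8 comparisons changed. At 16 hours against preterm controls it was 5, but 4 with only the groups compared, 3 with the day of delivery as a covariate and 1 with a change of at least 2-fold added, and it was 4 to 5 on leaving out single animals. At 16 hours against 5 days it was 3, but 4 with library totals alone, 2 with at least 2-fold added and 3 to 4 on leaving out single animals. At term against preterm controls it was 0, between 0 and 1 on leaving out single animals, and 1 (HHIP) with preterm control 209 and term control 200 both left out, a choice made after seeing the data. SHH, SMO and GLI2 passed at 16 hours under all 17 alternatives that kept the limit on adjusted p alone. With at least 2-fold added, SMO and GLI2 did not pass. PTCH1 was lost with the day of delivery and GLI1 under 4 alternatives, and the causes were not tested. Of 1118 values recomputed for single genes, 1011 kept their direction and side of the limit, 75 were lost, 5 gained and 27 changed sign, and the last were all log2 differences that had not passed. With library totals alone, GLI3 became -0.0057 (LPS, 5 days) and HHIP -0.053 (16 hours against 5 days). With limma-voom, GLI3 became -0.0015 (LPS, 5 days). With the day of delivery, GLI3 became 0.28 (LPS + Beta-Ac), 0.15 (16 hours) and 0.00088 (16 hours against 5 days). With both libraries left out, GLI3 became 0.056 (LPS + Beta-Ac) and SHH -0.23 (term). On leaving out single animals, GLI3 ranged from -0.51 to 0.10 at 16 hours, from -0.12 to 0.14 after LPS, from -0.20 to 0.11 after LPS + Beta-Ac, from -0.30 to 0.34 at term and from -0.52 to 0.064 between 16 hours and 5 days. SHH ranged from -0.12 to 0.12 after LPS + Beta-Ac and from -0.19 to 0.22 at term, PTCH1 from -0.0094 to 0.12 after LPS, and HHIP from -0.031 to 0.29 between 16 hours and 5 days. Groups of 2 to 4 animals limit what could pass, above all at term.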
